A study of Mus musculus with 2 samples.

Results

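The genes described here encode 10 C-type lectin-like receptors of natural killer (NK) cells and T cells: the Ly49 receptors Klra3 (Ly49C), Klra4 (Ly49D), Klra7 (Ly49G2), Klra8 (Ly49H) and Klra9 (Ly49I), the NKG2 receptors Klrc1 (NKG2A), Klrc2 (NKG2C) and Klrk1 (NKG2D), Klrd1 (CD94), which pairs with NKG2A and NKG2C, and Klrg1. They were taken by symbol, and all 10 were found among the 31053 genes of both count matrices. On mouse chromosome 6 of GRCm38 (mm10), Klrg1 lies at chr6:122270596-122282882 and the other 9 genes lie together between positions 129591782 and 130337574.

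The data are single-cell RNA sequencing (scRNAseq) counts of live (propidium iodide-negative) CD45.2-positive cells sorted from the right hemisphere of male C57BL/6 mice of 8 to 12 weeks, 10 days after intracranial injection of 100000 GL261 glioma cells. One library was made from wild-type mice (WT, labelled CD169-DTR wild type) and 1 from CD169-DTR heterozygous mice, in which 1 copy of Siglec1, the gene of CD169, is replaced by the diphtheria toxin (DT) receptor. Mice of both groups received DT intraperitoneally 1 day before and 4 days after the tumor cells, and the toxin kills mouse cells that carry its receptor. Each library pooled 3 mice, so the data carry no spread between animals, no test between the groups was possible, and every interval given is a 95% interval that covers counting error only.

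Ly49 and NKG2 receptors let NK cells and some T cells read the MHC class I and stress-induced molecules of other cells. Ly49C, Ly49G2 and Ly49I bind classical MHC class I and inhibit the cell, as does NKG2A with CD94, which binds Qa-1 (encoded by H2-T23). Ly49D and Ly49H lack an inhibitory motif and activate through the adaptor DAP12 (Tyrobp), and NKG2D activates through DAP10 (Hcst) or DAP12 on binding stress ligands such as those of the Raet1 and H60 genes. KLRG1 binds cadherins and marks mature NK cells, effector T cells and some regulatory T cells and innate lymphoid cells.

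The coding starts of 7 receptors are shown because they carry the difference between the inhibitory and the activating Ly49 receptors that the results are ordered by. Each line gives the first 45 coding bases of the GENCODE transcript on the minus strand of GRCm38, with the codons of the immunoreceptor tyrosine-based inhibition motif (ITIM) in capitals.
Klra3: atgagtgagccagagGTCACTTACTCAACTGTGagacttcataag
Klra7: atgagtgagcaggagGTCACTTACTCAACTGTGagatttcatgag
Klra9: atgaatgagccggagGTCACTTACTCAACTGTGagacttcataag
Klra4: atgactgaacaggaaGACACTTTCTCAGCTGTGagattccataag
Klra8: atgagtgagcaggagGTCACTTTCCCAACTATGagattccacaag
Klrc1: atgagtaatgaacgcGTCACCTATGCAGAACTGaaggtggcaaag
Klrg1: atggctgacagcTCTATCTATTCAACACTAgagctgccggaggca
In Klra4 (chr6:130065258-130065302) and Klra8 (chr6:130128116-130128160) the capitals mark the codons at the place of the motif, where the tyrosine of Klra3 is changed as Y8F, counted from the initiator methionine. Klra3 (chr6:130335755-130335799), Klra7 (chr6:130231573-130231617), Klra9 (chr6:130191257-130191301) and Klrc1 (chr6:129678866-129678910) keep the tyrosine at residue 8, and the motif of Klrg1 (chr6:122282767-122282811) starts at residue 5. Within the first 45 residues, the motif was found once in each of Klra3, Klra7, Klra9, Klrc1 and Klrg1 and in none of Klra4, Klra8, Klrc2, Klrd1 and Klrk1.

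The close sequences of the genes limit how reads can be told apart. The coding sequences of Klra3 and Klra9 were 95.9% identical, those of Klra8 and Klra9 91.9%, and those of Klrc1 and Klrc2 81.0%. In the last 500 bases of the transcripts, where the 3′ assay reads, 32.6% of the 90-base windows of Klrc1 were also found in Klrc2, 18.5% of those of Klrc2 in Klrc1, 14.1% of those of Klra9 in Klra3 or other Klra genes, 10.2% of those of Klra7 and 8.52% of those of Klra3 in other Klra genes. None of the windows of Klra4, Klra8, Klrd1, Klrk1 or Klrg1 was shared. Only exact matches to the end of the chosen transcript of each gene were sought. Windows that differ by few bases and other transcript ends were therefore not covered.

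The libraries held 101808996 (WT) and 84065489 (CD169-DTR) UMIs, and 10107 and 7604 barcodes had 1000 or more UMIs of which no more than 17% were mitochondrial and were used. The median was 7776 and 8099.5 UMIs per kept barcode, and 21 barcodes were kept in both libraries, against 11.3 expected for independent draws. Siglec1, the targeted gene, was at 39.2 CPM (36.3 to 42.2) in macrophage-like cells of WT and 12.9 CPM (10.7 to 15.5) in those of CD169-DTR (CPM, UMIs per 1000000 UMIs of the class). Cells were clustered without any Klr gene and named from markers, which gave 299 NK-like cells in WT (2.96% of kept barcodes) and 83 in CD169-DTR (1.09%), and 418 and 205 T-like cells, of which 179 and 82 were CD8 T-like. All 8 NK markers, Ncr1, Eomes, Prf1, Gzma, Il2rb, Txk, Tbx21 and Cma1, were detected in the NK-like cells of both libraries. Of the NK-like cells, 33 in WT and 2 in CD169-DTR formed a shallow cluster with a median of 1599 UMIs.

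The Ly49 genes were concentrated in NK-like cells. Of all UMIs in kept barcodes, NK-like cells held 86.9% for Klra4, 82.3% for Klra8, 80.3% for Klra9, 68.6% for Klra3 and 60.8% for Klra7. Among the NKG2 receptors and CD94, Klrc2 (66.5%) lay between Klra7 and Klra3, and Klrc1 (56.1%) below Klra7. Klrk1 and Klrd1 were spread more widely, with 30.0% and 27.5% of their UMIs in NK-like cells. Klrg1 had 34.4% of its UMIs in NK-like cells and 43.0% in a small T-like cluster with Foxp3 and Il13 among its leading genes (the Foxp3 Il13 cluster). That cluster was also led by Calca, Il5 and Areg, and whether all its cells are T cells was not tested.

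**Figure D1:**
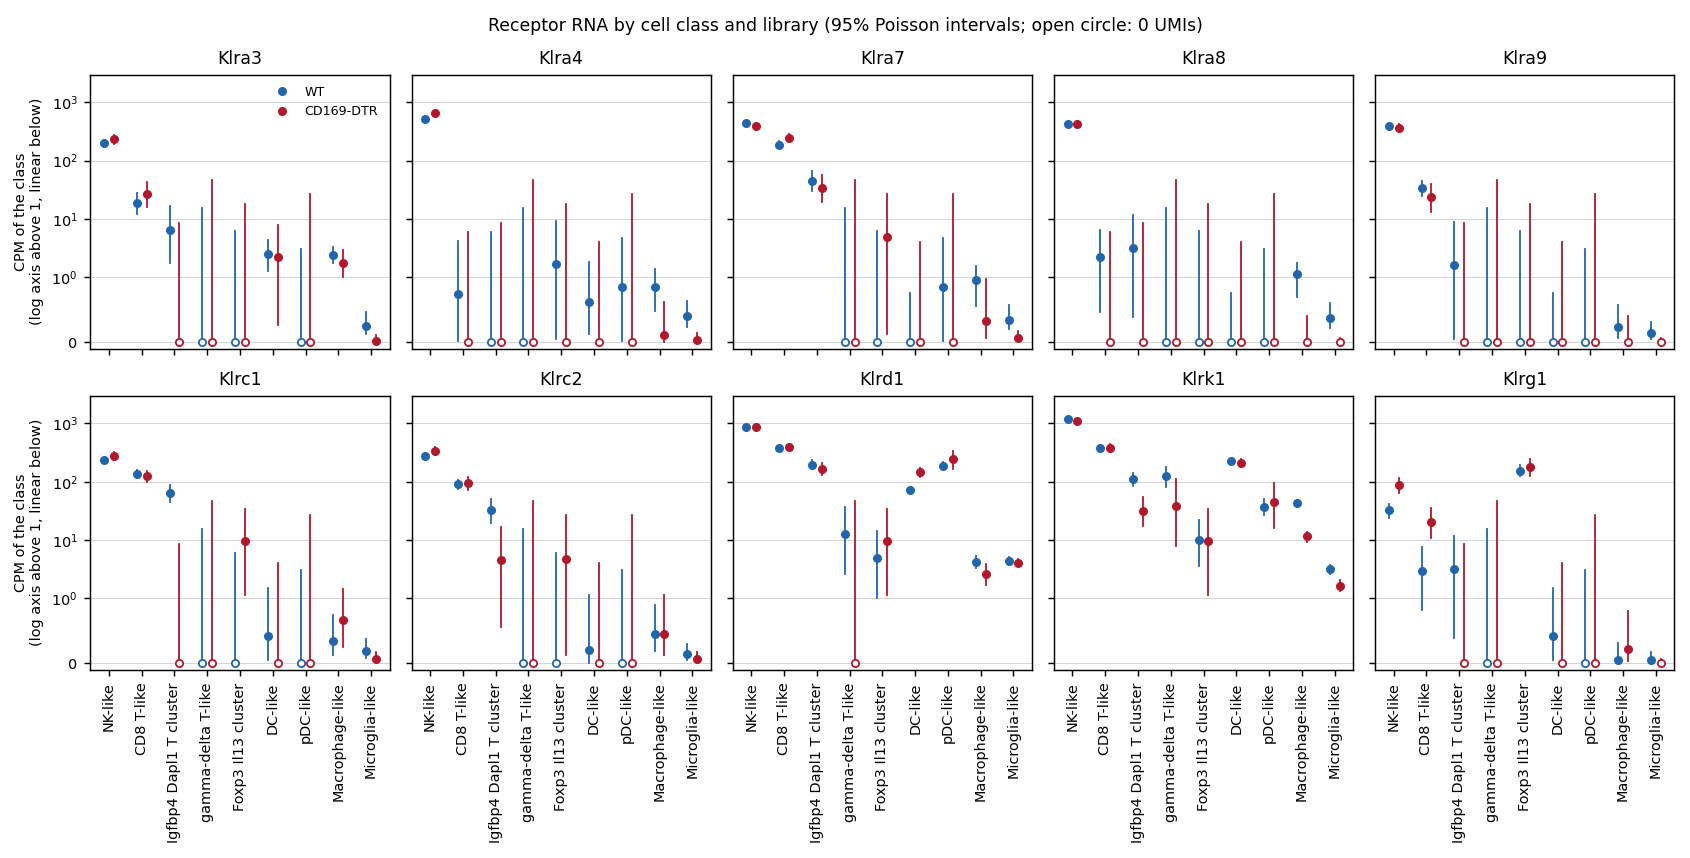
Level of each receptor gene in 9 cell classes of the WT (blue) and CD169-DTR (red) libraries, in CPM on an axis that is logarithmic above 1 and linear below, with 95% Poisson intervals as lines and open circles for 0 UMIs. The Ly49 genes fall from NK-like cells to CD8 T-like cells, with Klra4 and Klra8 at 3 UMIs or fewer per library in the latter, while Klrd1 and Klrk1 reach 72.4 CPM or more in DC-like cells and Klrg1 is at 156 (WT) and 178 CPM (CD169-DTR) in the Foxp3 Il13 cluster.

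In NK-like cells, the inhibitory Ly49 genes were at similar levels in both libraries. Klra3 was at 203 CPM (182 to 226) in WT and 234 CPM (196 to 276) in CD169-DTR. Klra7 was at 442 CPM (411 to 475) in WT and 387 CPM (339 to 441) in CD169-DTR. Klra9 was at 386 CPM (357 to 417) in WT and 367 CPM (320 to 419) in CD169-DTR. For each of the 3 genes the log2 ratio, WT over CD169-DTR, had an interval that included 0, at -0.20 (-0.49 to 0.10) for Klra3, 0.19 (-0.03 to 0.41) for Klra7 and 0.07 (-0.15 to 0.30) for Klra9.

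Of the activating Ly49 genes, Klra4 was lower in WT and Klra8 was level between the libraries. Klra4 was at 510 CPM (476 to 545) in WT and 666 CPM (601 to 735) in CD169-DTR, a log2 ratio of -0.39 (-0.56 to -0.21). Klra8 was at 432 CPM (401 to 465) in WT and 430 CPM (379 to 487) in CD169-DTR, a log2 ratio of 0.01 (-0.20 to 0.22). The summed level of the 5 Ly49 genes was 1973 CPM in WT and 2084 CPM in CD169-DTR, a log2 ratio of -0.08 (-0.17 to 0.02).

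The inhibitory Klrc1 and the activating Klrc2 and Klrk1 stayed well within 2-fold between the libraries, as did their partner Klrd1. Klrc1 was at 235 CPM (213 to 260) in WT and 280 CPM (239 to 326) in CD169-DTR. Klrc2 was at 279 CPM (254 to 306) in WT and 338 CPM (293 to 388) in CD169-DTR, a log2 ratio of -0.28 (-0.52 to -0.03). Klrd1 was at 879 CPM (835 to 925) in WT and 872 CPM (798 to 951) in CD169-DTR, and Klrk1 at 1176 CPM (1124 to 1229) and 1087 CPM (1004 to 1175). The sum of these 4 genes was 2569 CPM in WT and 2577 CPM in CD169-DTR, with a log2 ratio of -0.00 (-0.09 to 0.08), so a difference of the sum beyond that interval was not seen at this depth.

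Klrg1 was the member that differed most in NK-like cells, and it was lower in WT. It was at 32.5 CPM (24.4 to 42.4) in WT, from 54 UMIs in 33 cells, and at 87.0 CPM (64.8 to 114) in CD169-DTR, from 51 UMIs in 17 cells, which was 2.68-fold higher (1.79 to 4.00). On the log2 scale this was -1.42 for WT over CD169-DTR. Klrg1 was the only one of the 10 members past 2-fold, against a background of 4.3% of the 7533 genes with 20 or more UMIs past 2-fold with WT higher and 2.38% with WT lower. The median log2 ratio of the 10 members was -0.10, beside -0.03 over all 7533 genes. UMIs of a gene came in clusters within cells, up to 9 Klrg1 UMIs in 1 cell, so these intervals are narrower than those over cells would be.

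**Figure D2:**
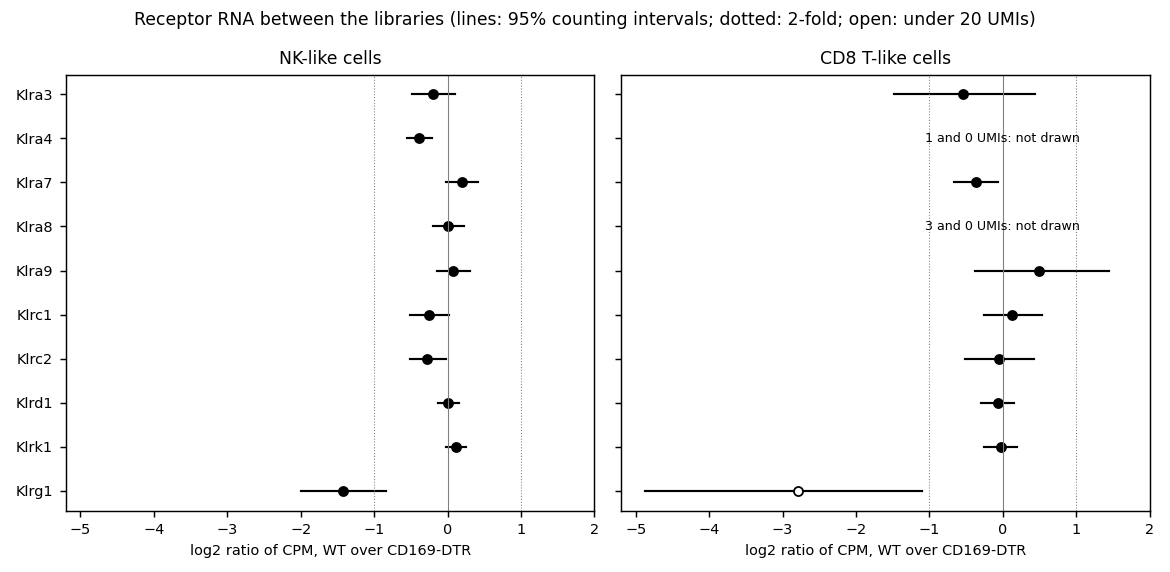
Log2 ratio of CPM, WT over CD169-DTR, of each receptor in NK-like cells (left) and CD8 T-like cells (right), with 95% counting intervals as lines, 2-fold as dotted lines and open circles for genes with under 20 UMIs. In NK-like cells Klrg1 lies at -1.42 and the other 9 genes between -0.39 and 0.19.

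The shares of NK-like cells with a receptor were close between the libraries for most members. To compare them, each cell was thinned to 2500 UMIs, which left out 36 WT and 2 CD169-DTR cells and kept 263 and 81. After thinning, at least 1 Ly49 gene was detected in 83.7% of WT cells (78.6 to 87.9) and 81.5% of CD169-DTR cells (71.3 to 89.3), beside 85.3% and 86.7% without thinning. Single Ly49 genes were each found in a minority of cells, from 23.2% (Klra3) to 43.7% (Klra7) in WT and from 24.7% (Klra3) to 43.2% (Klra4) in CD169-DTR. The widest gap was that of Klra7, at 43.7% in WT (37.6 to 49.9) and 32.1% in CD169-DTR (22.2 to 43.4), with overlapping intervals. Klrk1 was detected in 89.7% of WT and 90.1% of CD169-DTR cells, Klrd1 in 79.5% and 82.7%, Klrc2 in 43.3% and 50.6%, and Klrc1 in 34.6% and 39.5%. Klrg1 was detected in 7.22% of WT cells (4.4 to 11) and 16.0% of CD169-DTR cells (8.83 to 25.9), beside 11% and 20.5% without thinning, and the thinned intervals overlap. In microglia-like cells, with medians of 7649 and 7875 UMIs against 5213 and 6391 in NK-like cells, a Ly49 gene was found in 0.501% and 0.019% of cells at the same 2500 UMIs, Klrd1 in 1.39% and 1.35%, Klrk1 in 0.915% and 0.474%, and Klrg1 in none.

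The other genes of the NK gene complex did not share one direction. Of the 14 listed genes present, 9 were ranked in NK-like cells, with a median log2 ratio of -0.25. Klre1, a partner of inhibitory and activating receptors of this region, was at 913 CPM in WT and 821 CPM in CD169-DTR, and Klrb1c (NK1.1) at 487 and 579 CPM. Klrb1b was at 254 and 191 CPM. Past 2-fold were 2 of the 9, both lower in WT, beside 2.38% of all 7533 genes, and both at low levels: Klra5 at 9.03 and 30.7 CPM and Klra6 at 10.8 and 30.7 CPM.

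Receptor adaptors were close between the libraries in NK-like cells, and 7 of 10 maturation genes were lower in WT. The 15 ranked adaptor and signaling genes had a median log2 ratio of -0.12 and none past 2-fold, with Tyrobp at 2138 and 2434 CPM, Hcst at 460 and 573 CPM and Fcer1g, another signaling adaptor, at 2499 and 2312 CPM. Plcg2 (21.1 and 39.3 CPM) and Syk (34.9 and 59.7 CPM) had the largest ratios of that list. The 10 genes of NK maturation had a median of -0.45, beside -0.03 over all genes. Of them 3 were past 2-fold, all lower in WT, as were 2.38% of the 7533 genes: S1pr5, a receptor for egress, at -1.74 (-2.52 to -0.97), the chemokine receptor Cx3cr1 at -1.61 (-2.27 to -0.95) and the integrin gene Itgam at -1.08 (-1.60 to -0.56). Higher in WT were 3 of the 10, Gzmb with an interval that excluded 0 and Prdm1 (42.1 and 37.5 CPM) and Tbx21 (96.3 and 87.0 CPM) with intervals that included it. The granzyme genes went different ways, with Gzmb at 3011 CPM in WT and 1676 CPM in CD169-DTR and Gzma at 6234 and 7750 CPM, while perforin (Prf1) was at 498 and 618 CPM. The 10 genes of immature NK cells went both ways, with a median of 0.04, none past 2-fold and 5 higher in WT. Higher in WT were Ctla2a at 2133 and 1572 CPM, Xcl1 at 1878 and 1256 CPM, Emb at 481 and 369 CPM and Ltb at 404 and 235 CPM. Cd7 was lower in WT, at -0.31 (-0.56 to -0.05). Cd27, Thy1, Kit and Il7r were also lower, with intervals that included 0. Of 9 ranked genes of type 1 innate lymphoid cells (ILC1), with a median of -0.24, Cxcr6 at -1.71 (-2.35 to -1.06) and Tmem176a at -1.06 (-1.69 to -0.43) passed 2-fold, both lower in WT, beside the same 2.38% of all genes, while Tmem176b was at 40.9 and 71.7 CPM, Tnfsf10 at 49.3 and 30.7 CPM and Inpp4b at 39.1 and 46.1 CPM.

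Markers of other cells in the NK-like cells were present in both libraries. The 7 microglial markers were all detected and summed to 215 CPM in WT and 237 CPM in CD169-DTR, against 8 macrophage markers at 1269 and 835 CPM with 6 and 4 of them detected and Mrc1 and F13a1 at 0 in both. The 8 T cell markers summed to 1008 and 1218 CPM with 7 and 8 detected. Their part in the ratios above was not tested.

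All 4 ranked ligand genes were higher in WT in NK-like cells, with a median log2 ratio of 0.26 beside -0.03 over all 7533 genes. This was not particular to NK-like cells. The same 4 genes were higher in WT in T-like, microglia-like, DC-like, granulocyte-like, B-like and endothelial-like cells. They were lower in WT in choroid plexus-like cells and went both ways in macrophage-like and pDC-like cells. In NK-like cells, H2-K1 was at 4964 and 4050 CPM, H2-D1 at 4627 and 3976 CPM and B2m at 3645 and 3167 CPM. H2-T23, the gene of the NKG2A ligand Qa-1, was at 846 CPM in WT and 515 CPM in CD169-DTR NK-like cells, a log2 ratio of 0.71 (0.53 to 0.90), and this gene was also higher in WT in microglia-like cells (884 and 588 CPM) and macrophage-like cells (783 and 552 CPM). Raet1d, Raet1e, H60b and H60c had 0 UMIs in the NK-like cells of both libraries. Ulbp1, an NKG2D ligand, was at 17.2 CPM (WT) and 15.9 CPM (CD169-DTR) in microglia-like cells. Cdh1, the E-cadherin that KLRG1 binds, was lower in WT in pDC-like cells, at 85.3 and 162 CPM, from 101 and 22 UMIs, with only 11 such cells in CD169-DTR. In the unnamed clusters together Cdh1 was higher in WT, at 16.7 and 8.16 CPM.

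Single NK-like cells carried from none to all of the 5 Ly49 genes. In both libraries together, 344 cells at 2500 UMIs had on average 1.81 Ly49 genes detected. None was found in 58 cells (16.9%), 1 in 81, 2 in 103, 3 in 74, 4 in 25 and 5 in 3. Multiplying the shares of the single genes, as if they were drawn independently, gives 35.3 cells with none, 103 with 1, 118 with 2, 66.9 with 3, 18.4 with 4 and 1.96 with 5. Over both libraries, more cells than that product had no Ly49 gene or 3 or more, and fewer had 1 or 2. Both libraries had the excess at 0 and the lower numbers at 1 and 2. With 3 genes there were 52 WT cells where the product gives 53.0, and 22 CD169-DTR cells where it gives 13.9. With 4 genes there were 22 WT cells against 14.9 and 3 CD169-DTR cells against 3.49. In WT, 16.3% of cells (12.1 to 21.4) had none against 9.67% for the product, and in CD169-DTR 18.5% (10.7 to 28.7) against 12.2%.

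**Figure D3:**
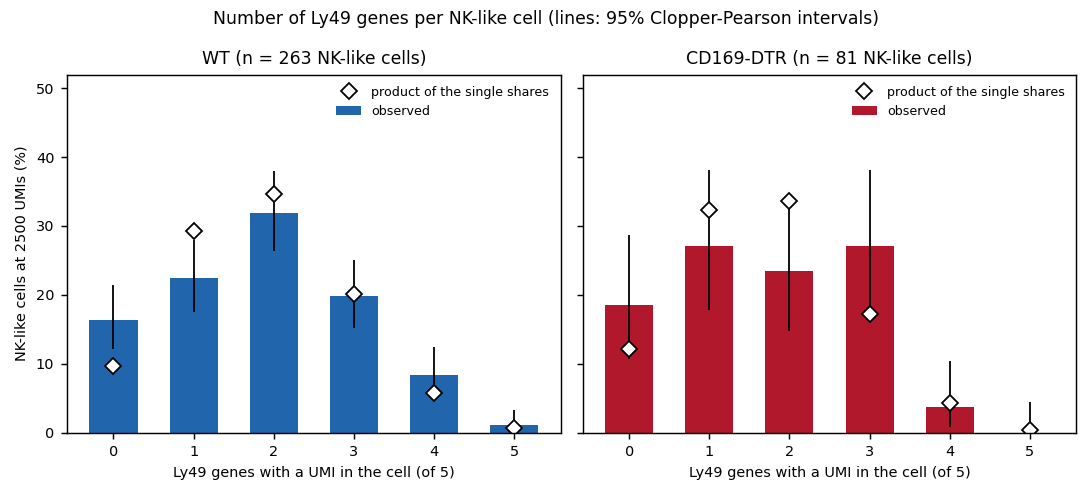
Number of Ly49 genes with a UMI per NK-like cell at 2500 UMIs, in percent of 263 WT cells (left) and 81 CD169-DTR cells (right), with 95% Clopper-Pearson intervals as lines and the product of the single shares as diamonds. Cells without a Ly49 gene were 16.3% in WT and 18.5% in CD169-DTR, where the product gives 9.67% and 12.2%.

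All 32 possible combinations of the 5 genes were seen in WT and 25 of them in CD169-DTR. Apart from none, the most frequent in WT was Klra4 with Klra7 and Klra8, in 21 cells where the product gives 8.72, and it was found in 5 cells of CD169-DTR where the product gives 1.88. An inhibitory and an activating Ly49 gene were found together in 47.7% of the 344 cells (42.3 to 53.1), an inhibitory one alone in 25% (20.5 to 29.9) and an activating one alone in 10.5% (7.44 to 14.2). The first of these shares was 49.0% in WT and 43.2% in CD169-DTR. Of the 58 cells with no Ly49 gene, 34 had Klrc1, which left 24 cells (6.98%, 4.52 to 10.2) with neither. At this depth a gene that was not detected may still have been expressed.

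Within pairs, Klra4, Klra7 and Klra8 were found in the same cells more often than the product of their shares. Klra4 and Klra8, the 2 activating genes, shared 73 cells where the product gives 54.2, a ratio of 1.35. Klra8 was found in 53.3% of cells with Klra4 (44.6 to 61.9) and 30.4% of those without (24.2 to 37.2). The ratio was 1.31 in WT and 1.49 in CD169-DTR. Klra4 with Klra7 had a ratio of 1.28 (1.32 and 1.16) and Klra7 with Klra8 a ratio of 1.29 (1.29 and 1.22). Klra3 with Klra9, the pair with the closest sequences, had a ratio of 0.89 (0.99 in WT and 0.56 in CD169-DTR).

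Klrc1 was found less often in cells with Klra4, Klra7 or Klra8. Of 137 cells with Klra4, 29 (21.2%, 14.7 to 29.0) had Klrc1, against 94 of 207 cells without Klra4 (45.4%, 38.5 to 52.5), a ratio to the product of 0.59 that was 0.57 in WT and 0.65 in CD169-DTR. The ratio was 0.67 for Klra7 (0.65 and 0.78) and 0.70 for Klra8 (0.67 and 0.81). It was 1.04 for both Klra3 and Klra9, which did not share this pattern, and the shares of Klrc1 in cells with and without either gene had overlapping intervals, although Klra9 was at 0.95 in WT and 1.31 in CD169-DTR. Klrd1, the partner chain of NKG2A, was found in 78.0% of cells with Klrc1 (69.7 to 85.0) and 81.4% of cells without (75.7 to 86.4), and these intervals overlap. Klrc1 and Klrc2 had a ratio of 1.23 (1.34 in WT and 0.93 in CD169-DTR), and the part of the windows their transcripts share was not tested.

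**Figure D4:**
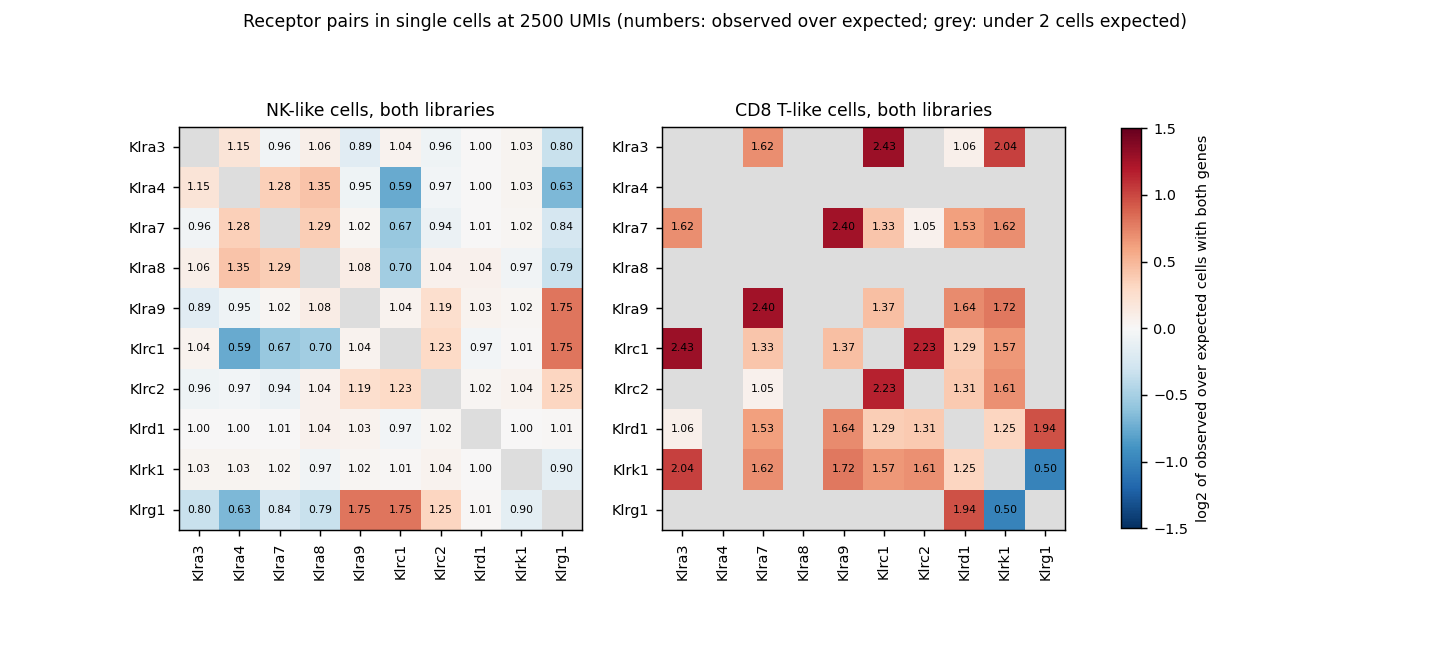
Cells with both genes of a pair, observed over the product of the single shares, in NK-like (left, 344 cells) and CD8 T-like cells (right, 254 cells) of both libraries at 2500 UMIs, colored on a log2 scale with the ratio printed and pairs with under 2 expected cells in grey. In NK-like cells the block of Klra4, Klra7 and Klra8 lies at 1.28 to 1.35 and Klrc1 with these 3 genes at 0.59 to 0.70, while in CD8 T-like cells the pairs of Klrd1 and Klrk1 with Klra7 lie at 1.53 and 1.62.

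The Ly49-negative NK-like cells differed in other genes. Over the thinned cells, the 286 with a Ly49 UMI had all 8 ranked ILC1 genes below the 58 without, with a median log2 ratio of -2.23 beside 0.02 over 4949 genes. The interval excluded 0 for 6 of the 8, and in CD169-DTR alone none of the list reached 20 UMIs. Tmem176b was at 11.2 CPM in cells with and 186 CPM in cells without, Cxcr6, a receptor of resident lymphocytes, at 14.0 and 186 CPM, Tmem176a at 12.6 and 138 CPM, and the transcription factor gene Rora at 18.2 and 152 CPM. In the cells without, these values came from 27, 27, 20 and 22 UMIs. The same genes were not particular to these cells, at 1318, 1100, 1215 and 473 CPM in WT gamma-delta T-like cells. Tnfsf10 and Itga1 had intervals that included 0. Immature genes had a median of -0.57, led by Ltb at -1.60 (-1.97 to -1.23), with Emb at -1.01 and the chemokine Xcl1 at -0.93. Of the 8 ranked immature genes 3 lay above 0, Ctla2a at 0.30 (0.10 to 0.50), Cd27 at 0.43 (-0.31 to 1.26) and Thy1 at 0.06 (-0.81 to 1.05). Mature genes had a median of 0.65, with Prf1 at 1.68 (1.15 to 2.25) and Gzma at 1.22 (1.09 to 1.35). Of the 10 mature genes 8 lay above 0, 4 of them with an interval that excluded 0. Prdm1 at -0.72 (-1.85 to 0.56) and Tbx21 at -0.09 (-0.94 to 0.86) lay below. Gzma, Prf1, Ltb, Emb and Xcl1 had the same sign in each library, with Gzma at 1.28 in WT and 1.11 in CD169-DTR. Cd7 (-0.98 in WT and 0.29 in CD169-DTR) and Ctla2a (0.38 and -0.09) did not, and their CD169-DTR intervals included 0. Tyrobp, the adaptor of Ly49D and Ly49H, was higher in the cells with a Ly49 UMI, at 2428 and 1414 CPM.

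NK-like cells with Klrg1 had higher levels of most mature genes and lower levels of most immature genes. The 32 NK-like cells with a Klrg1 UMI, 19 from WT and 13 from CD169-DTR, had 9 of 10 mature genes above the 312 without, with a median of 1.29 beside 0.02 over all genes. Cx3cr1 was at 213 CPM in cells with and 28.2 CPM in cells without, Cma1, a mast cell protease gene, at 475 and 75.6 CPM, Prf1 at 1900 and 470 CPM, and Zeb2, a factor of terminal maturation, at 500 and 199 CPM. Gzmb was within its interval of 0. Of 8 immature genes 7 lay below with an interval that excluded 0 and Thy1 lay above, with a median of -1.61, Ltb at 37.5 and 336 CPM and Xcl1 at 488 and 1763 CPM. The median of the mature genes was 1.33 in WT and 1.35 in CD169-DTR. Among these 32 cells 21 had Klra9 (65.6%, 46.8 to 81.4), against 34.6% of cells without Klrg1, and 20 had Klrc1 (62.5%, 43.7 to 78.9) against 33.0%. The excess of Klrc1 was seen in WT, in 15 of 19 cells, and not in CD169-DTR, in 5 of 13 cells, and the difference between the libraries was not tested. The excess of Klrc1 also depended on depth, since the ratio to the product over both libraries was 1.75 at 2500 UMIs and 0.945 at 1500 UMIs.

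**Figure D5:**
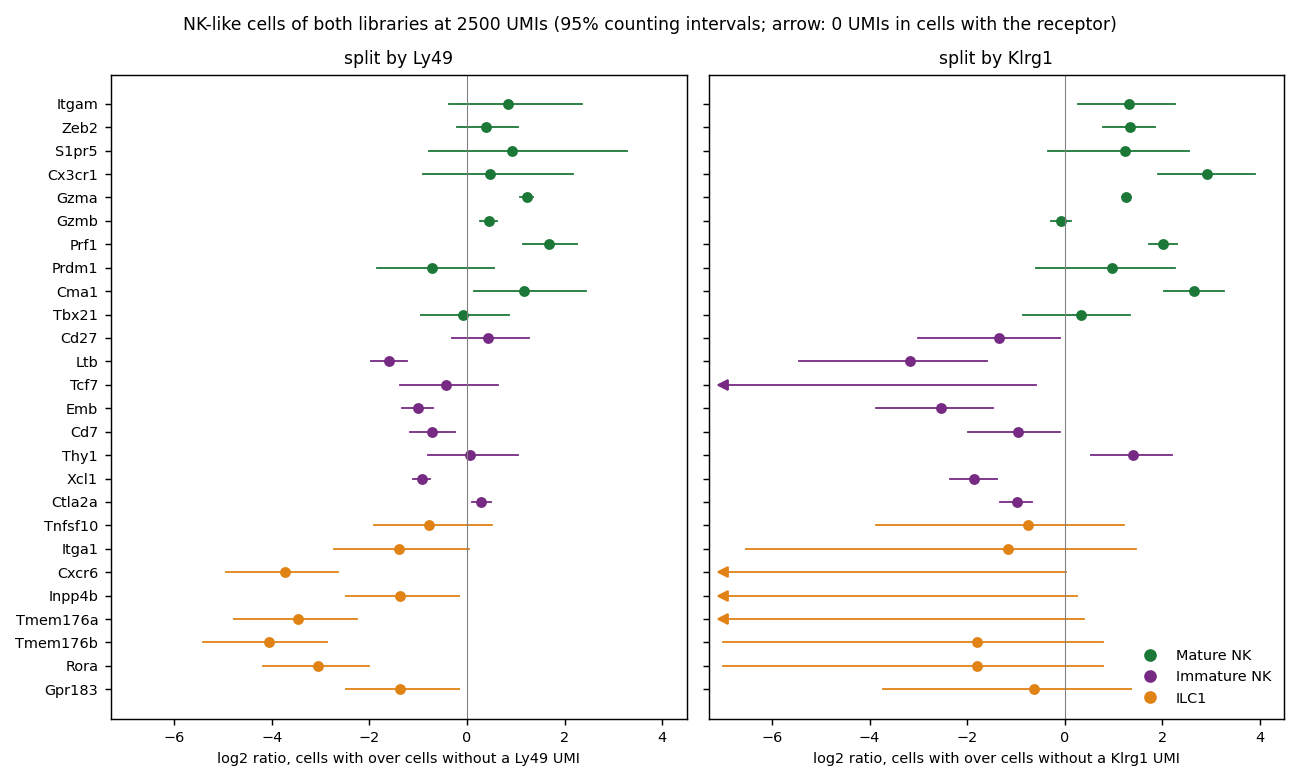
Log2 ratio of mature, immature and ILC1 genes in NK-like cells with over cells without a Ly49 UMI (left, 286 and 58 cells) or a Klrg1 UMI (right, 32 and 312 cells), at 2500 UMIs, with 95% counting intervals and arrows for genes at 0 UMIs in cells with the receptor. ILC1 genes lie below 0 on the left, Tmem176b at -4.06, and 9 of 10 mature genes lie above 0 on the right, all but Gzmb, with Cx3cr1 at 2.91.

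CD8 T-like cells carried inhibitory Ly49 genes and almost no activating ones. Klra7 was at 189 CPM (166 to 214) in WT and 243 CPM (206 to 285) in CD169-DTR, a log2 ratio of -0.36 (-0.66 to -0.06). Klra9 was at 33.7 and 24.0 CPM and Klra3 at 18.7 and 27.2 CPM, with intervals that overlap between the libraries. Klra4 had 1 UMI in WT and 0 in CD169-DTR, and Klra8 had 3 UMIs in 1 WT cell and 0 in CD169-DTR. After thinning, 0 of 254 cells had Klra8, which allows a share of up to 1.18%, against 39.5% of NK-like cells. Klra7 was found in 22.4% of the WT and 22.5% of the CD169-DTR cells after thinning, and in 30.7% and 30.5% without it.

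The NKG2 receptors and CD94 were level between the libraries in CD8 T-like cells. Klrk1 was at 379 CPM (347 to 414) in WT and 387 CPM (340 to 439) in CD169-DTR, and Klrd1 at 375 CPM (343 to 409) and 393 CPM (346 to 446). Klrc1 was at 136 CPM (117 to 158) in WT and 125 CPM (98.6 to 156) in CD169-DTR, and Klrc2 at 90.7 and 94.4 CPM. The log2 ratio of the sum of these 4 genes was -0.03 (-0.17 to 0.11). Klrg1 had 4 UMIs in 3 WT cells and 13 UMIs in 5 CD169-DTR cells, 3.00 CPM (0.817 to 7.67) and 20.8 CPM (11.1 to 35.5), and it was below the 20 UMIs needed for a ratio. Of the 7 ranked members none was past 2-fold, beside 3.59% of 7070 genes with WT higher and 2.5% with WT lower. In the same cells Gzma was at 175 and 59.2 CPM and Gzmb at 875 and 488 CPM.

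In CD8 T-like cells, cells with no receptor and cells with 4 were more frequent than the product of the single shares gives. With 10 genes counted, 28.7% of 254 cells at 2500 UMIs (23.3 to 34.7) had none where the product of the shares gives 13.4%, and 24 cells had 4 where the product gives 8.85. Klrd1 was found in 78.9% of the 57 cells with Klra7 (66.1 to 88.6) and 43.7% of the others (36.6 to 50.9), and Klrk1 in 64.9% (51.1 to 77.1) and 33.0% (26.5 to 40.0). Klrk1 was likewise found in 63.2% of cells with Klrc1 (49.3 to 75.6) and 33.5% without (26.9 to 40.6). The 102 cells with Klrk1 also had more Klre1 (349 and 42.1 CPM), Klra1 (251 and 39.5 CPM) and Fcer1g (572 and 237 CPM) than the 152 without, and Fcer1g had a log2 ratio of 1.30 in WT and 1.21 in CD169-DTR. Of the 4 ranked genes of the NK gene complex 3 were higher, and Klra6 was level at 62.8 and 63.2 CPM. Only 4 of the 12 ranked adaptor and signaling genes were higher, with a median log2 ratio of -0.16 beside -0.07 over all genes. Hcst was at 678.4 and 639.5 CPM and Lck at 372.5 and 447.4 CPM. All 9 ranked immature genes were higher over both libraries, with a median of 0.55, and 6 of them had an interval that excluded 0. In WT 7 of the 9 were higher and in CD169-DTR 6. Xcl1 was higher in the WT cells with Klrk1, at 1.41 (1.07 to 1.76), and not in those of CD169-DTR, at 0.06 (-0.70 to 0.79). Gzma (3 and 17 UMIs) and Gzmb were lower in the CD169-DTR cells with Klrk1, at -1.84 (-4.3 to -0.05) and -0.77 (-1.47 to -0.12). Their WT intervals included 0.

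A second T-like cluster, with Igfbp4 and Dapl1 among its leading genes, had lower levels of Klrc1, Klrc2 and Klrk1 in CD169-DTR. These 3 of its 5 ranked members were past 2-fold with WT higher, as were 10.7% of 5205 genes, and 1.75% were past 2-fold with WT lower. It held 131 WT and 73 CD169-DTR cells. Klrc1 had 39 UMIs in 14 WT cells (63.2 CPM, 44.9 to 86.4) and 0 in CD169-DTR. Set against a floor of 3 UMIs in the CD169-DTR library, the WT level was 9.17-fold higher, without the counting error of the WT value. Klrk1 was at 110 CPM (85.6 to 140) in WT and 32.2 CPM (17.6 to 54.0) in CD169-DTR, and Klrc2 at 32.4 CPM (19.8 to 50.1) and 4.60 CPM (0.557 to 16.6). Klrd1 was at 198 CPM (164 to 236) in WT and 166 CPM (130 to 208) in CD169-DTR, and Klra7 at 45.4 and 34.5 CPM, both with overlapping intervals. All 5 ranked mature genes of the NK list were also past 2-fold and higher in WT in this cluster, Gzma at 77.8 and 4.60 CPM, Gzmb at 92.4 and 16.1 CPM, Cx3cr1 at 77.8 and 13.8 CPM, Zeb2 at 37.3 and 9.19 CPM and Tbx21 at 35.7 and 4.60 CPM, and the part of these cells in the receptor values was not tested. Thinned to 2500 UMIs, a Klrc1 UMI was found in 7.34% of WT (3.22 to 14.0) and 0 of 70 CD169-DTR cells, which allows a share of up to 4.29%, so these ranges overlap.

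Of the 10 members, Klrg1 was the one with more than 8 UMIs in the Foxp3 Il13 cluster. It was at 156 CPM (126 to 191) in the 49 WT cells and 178 CPM (125 to 246) in the 31 CD169-DTR cells, with 131 UMIs in all in 20 cells, up to 20 in 1 cell. After thinning 19.6% of WT (9.36 to 33.9) and 16.7% of CD169-DTR cells (5.64 to 34.7) had Klrg1. Of the 14 thinned cells with Klrg1, 8 had Foxp3, which defines regulatory T cells (22 of 62 without Klrg1), and 6 had Il1rl1, the receptor of IL-33 (9 of 62). Il1rl1 was found in 5 of 9 against 5 of 37 cells in WT and 1 of 5 against 4 of 25 in CD169-DTR. Of the 6 cells with Il5 or Il13 but no Foxp3, 3 had Klrg1, 3 of 4 in WT and 0 of 2 in CD169-DTR. The T cell gene Trac was in 4 of 9 WT cells with Klrg1 against 29 of 37 without, and in 4 of 5 against 19 of 25 in CD169-DTR. Gamma-delta T-like cells had Klrk1, at 124 CPM (82.8 to 178) in WT and 38.1 CPM (7.85 to 111) in CD169-DTR, 3 UMIs of Klrd1 in WT, and none of the other 8 genes in their 34 and 12 cells.

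Over all T-like cells the sum of the NKG2 genes and CD94 was 549 CPM in WT and 540 CPM in CD169-DTR, a log2 ratio of 0.02 (-0.10 to 0.15). Klrg1 was at 32.7 CPM (26.8 to 39.4) and 36.3 CPM (27.1 to 47.6), -0.15 (-0.64 to 0.35). Without the Foxp3 Il13 cluster this ratio was -1.16 (-2.29 to -0.03). Of the 9 members with 20 or more UMIs, 1 was past 2-fold, Klra8 with 5 UMIs in WT and 22 in CD169-DTR, beside 6.06% of 9392 genes with WT higher and 1.46% with WT lower. All 22 UMIs came from 1 cell of the Mki67 T cluster, of 25 WT and 7 CD169-DTR cells. In that cluster Klrd1 was at 204 CPM (168 to 245) in WT and 247 CPM (153 to 377) in CD169-DTR, Klrk1 at 145 CPM (115 to 181) and 294 CPM (190 to 434), and Klrc1 had 27 and 0 UMIs, Klrc2 14 and 4, Klrg1 9 and 2, Klra9 3 and 8, Klra7 5 and 1, Klra3 1 and 0 and Klra4 none. Microglial markers summed to 552 CPM in WT and 278 CPM in CD169-DTR T-like cells, with 7 of 7 detected in both, and their part in these values was not tested.

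Outside lymphocytes, Klrd1 and Klrk1 were found with almost no Klrc1 or Klrc2 in DC-like cells, pDC-like cells and 1 unnamed cluster. The unnamed cluster, led by Cd209a and MHC class II genes, with 856 WT and 203 CD169-DTR cells, had Klrd1 at 192 CPM (184 to 201) in WT and 200.4 CPM (185 to 217) in CD169-DTR, while Klrk1 was at 203 CPM (194 to 212) and 94.2 CPM (83.4 to 106). Klrc1 had 1 UMI in each library there and Klrc2 had 6 and 1, Ncr1 had 5 and 0, and Trac 42 and 5. Hcst, the adaptor of NKG2D, was at 28.8 and 37.9 CPM. In WT, Klrk1 was found in 59.8% of its cells with Klrd1 (52.3 to 66.9) and 25.9% of those without (22.5 to 29.5), and in CD169-DTR in 40.4% (26.4 to 55.7) and 7.19% (3.64 to 12.5). DC-like cells had Klrk1 at 223 CPM (210 to 237) and 210 CPM (181 to 242) and Klrd1 at 72.4 CPM (65.0 to 80.4) and 147 CPM (123 to 174). In pDC-like cells Klrd1 was at 189 CPM (165 to 216) and 243 CPM (167 to 342) and Klrk1 at 37.2 CPM (27.0 to 49.9) and 44.2 CPM (16.2 to 96.3). Macrophage-like cells had Klrk1 at 43.5 CPM (40.4 to 46.6) in WT and 11.6 CPM (9.44 to 14.0) in CD169-DTR. Free RNA moved the same way, since in barcodes of 10 to 100 UMIs Klrk1 was at 105 CPM in WT and 21.3 CPM in CD169-DTR, and Klrd1 at 91.0 and 34.3 CPM. Klrk1 was at 3.16 and 1.65 CPM in microglia-like cells. The part of free RNA in the values of the myeloid and dendritic clusters was not tested.

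The order of the classes differed between Klrd1 and Klrk1, with the small Mki67 T cluster and all unnamed clusters but the Cd209a cluster left out. In the Mki67 T cluster the CD169-DTR level of Klrk1 was above that of DC-like cells, with overlapping intervals. Klrd1 fell from NK-like to CD8 T-like cells, and then stood at 166 to 243 CPM in the Igfbp4 Dapl1 T cluster, the Cd209a cluster and pDC-like cells, whose intervals overlap. Klrk1 fell from NK-like to CD8 T-like cells and then to DC-like cells, with the WT Cd209a cluster next to the latter, their WT intervals overlapping at 210 to 212 CPM. Over 26 points (the named classes of each library with 20 or more cells), the log2 CPM of Klrc1 was most like that of Klrc2 (r = 0.97), that of Klra7 most like Klrc2 (0.97), that of Klra9 most like Klrb1a (0.98), that of Klra3 most like Klra9 (0.95), and that of Klra4 and Klra8 most like Serpinb9b (0.97 and 0.96). Klrd1 and Klrk1 were most like each other (0.89), and Klrg1 was most like Zbtb32 (0.84). These points share libraries and the same NK-like cells at the top, and the values are descriptions.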

How the data were processed

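The WT and the CD169-DTR droplet library (1 each, grouped by the genotype in the labels) were analysed. The authors deposited unnormalized UMI counts of every barcode, from Cell Ranger 3.1.0 on mm10. No columns of other samples were present. Barcodes under 1000 UMIs or over 17% mitochondrial UMIs were left out. Doublets were not removed. Log-normalised counts (10000 per cell) of 2000 variable genes, with no Klr gene among them, were used to integrate both libraries (50 dimensions) and to cluster the cells (30 dimensions, resolution 1), and T and NK clusters were split again (20 dimensions, resolution 0.5) (Seurat 5.3.0 in R 4.3.3). A cluster was named when 3 markers had at least 10 UMIs and 25% of their top level and its 10 leading genes did not favor another class. The naming thresholds were chosen with the data in view.

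Levels are the summed UMIs of a class in a library per 1000000 (CPM) with exact Poisson intervals. Ratios have exact conditional and shares Clopper-Pearson intervals, all at 95%. With 1 library per group there is no test, and genes with 20 or more UMIs in a class were ranked and called past 2-fold. Shares and co-detection used cells thinned to 2500 UMIs (seed 1), leaving out shallower cells, and a share of 0 carries an upper limit of 3 counts. The analyses used Python 3.11.15 with numpy 2.4.6, scipy 1.17.1 and pandas 2.3.3, with Scrublet from scanpy 1.11.5, and were checked on simulated data.

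The 10 members, and the lists (NK gene complex, ligands, adaptors and signaling, mature NK, immature NK, ILC1), were chosen with earlier results of these data known. Members are named in NK-like and CD8 T-like cells, and in other classes where their values are described. Of a list, the 3 genes with most UMIs and the 2 with the largest ratio are named. Genes named beside a split of cells by a receptor, and the genes of the dendritic and Foxp3 Il13 clusters, were chosen after their values were seen. For each member the gene or genes most like it are those with the highest Pearson r of log2(CPM + 1). Sequences are from GENCODE transcripts of GRCm38.

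The alternatives changed the UMI minimum, the mitochondrial maximum, doublets, integration, resolution, Klr genes in the clustering, the cell classes (a marker gate), the scaling, free RNA, the weight of single cells, the UMI minimum of a gene, the thinning depth and the seed. Leaving out the shallow NK cluster, the Foxp3 Il13 cluster or the top cell of each gene, and all alternatives for receptor pairs, were added after seeing the data.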

Additional observations from a re-analysis of the deposited data

How the results depend on the processing

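Of 216 recomputed values over 19 results, 201 stayed inside the counting interval of the reported value or near the reported count, 14 moved and 1 turned. A turn was counted only where the reported interval excluded no difference, so other changes of sign are not among them. The NKG2 and CD94 sum lay between -0.139 and 0.059 in NK-like cells and between -0.083 and 0.277 in T-like cells. Klra9 with Klrc1 lay between 0.972 and 1.13. With NK cells gated by an Ncr1 UMI and no Cd3 UMI, the log2 ratio of the Ly49 sum in NK cells was -0.28 and that of the NKG2 and CD94 sum was -0.14, the WT share of cells with a Ly49 UMI was 72.2%, and the ratio of Klra7 with Klra8 was 1.56. With the mean of single-cell CPM, the Ly49 sum in NK-like cells was -0.20 and the NKG2 and CD94 sum in T-like cells was 0.28. The number of members past 2-fold in T-like cells was 0 with the marker gate, with a minimum of 50 UMIs or without the top cell of each gene, and 2 without the Foxp3 Il13 cluster, where Klrg1 in T-like cells was -1.16. The share of Klrc1-positive NK-like cells with Klrd1 was 63.6% at 1500 UMIs, 93.0% at 4500 UMIs and 86.2% with another seed. Klrg1 with Klrc1 in NK-like cells turned from 1.75 to 0.945 at 1500 UMIs. Klrg1 in NK-like cells stayed between -1.47 and -1.38 over 12 alternatives. The cause of these shifts was not tested.

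No paired analysis was possible because each group has 1 library. For the same reason no replicate could be left out, and genotype, library and pool of mice cannot be told apart. The 83 CD169-DTR NK-like cells limit shares there to about 10 percentage points, and genes under 20 UMIs in a class were not ranked. Removing the 5% of cells with the highest doublet scores took 1 of 299 WT and 0 of 83 CD169-DTR NK-like cells, and 14 of 418 and 14 of 205 T-like cells.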

Other observations

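Small numbers of receptor UMIs in other classes came from few cells. In WT granulocyte-like cells Klra4 had 28 UMIs, 16 of them in 1 cell, and 0 in CD169-DTR. A pair of unnamed clusters that joined lymphocyte and myeloid leading genes, 57 and 45 cells, had Klra8 at 110 and 55.3 CPM and Klrd1 at 257 and 292 CPM.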
